A study of Sus scrofa with 18 samples.

Results

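The genes described here are the 45 listed genes of presynaptic vesicle release: the proteins of the synaptic vesicle membrane, the calcium sensors, the fusion machinery and its clamps, the proteins that dock and prime vesicles, the active zone scaffolds and the proteins that retrieve vesicle membrane. Members were found by equality of their name with the gene name in the deposited gene table, and 41 of the 45 had a row under that name among the 31908 genes of the table. VAMP2 and UNC13B were found by their gene identifiers in a separate name table and are described apart, outside all counts. VAMP1 and UNC13A were matched to no row and are not analysed here. All 41 members passed the filter on low counts and were among the 17003 genes tested between gestation days.

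Whole brains of domestic pig fetuses were collected on gestation day (GD) 45, 60 or 90, and 3 female and 3 male fetuses were profiled on each day, giving 18 poly(A)-selected RNA-seq libraries. The dams of all groups were Landrace x Large White gilts bred to LR-M6 boars, so the groups differed by gestation day and fetal sex. On each day, 1 female and 1 male carried the same litter size label, and these 3 pairs per day were summed as litter pairs for the tests between days. The dam was not labelled and every fetus of a litter was taken on 1 day, so litter and day cannot be told apart (a litter of 8 occurred at both GD45 and GD60, as separate litters), and whole-brain RNA mixes all brain regions and cell types.

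A nerve terminal holds vesicles filled with transmitter; Rab3 and RIM proteins bring them to the active zone, Munc13 proteins prime them, and the SNARE proteins on vesicle and plasma membrane draw the membranes together. Complexins hold the assembled SNARE complex until calcium entering the terminal binds a synaptotagmin, and fusion follows. NSF and its adaptors take spent SNARE complexes apart, while dynamin, amphiphysin and synaptojanin recover the vesicle membrane. In the fetal brain these genes are expressed as neurons send out axons and form synapses.

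Levels are given in CPM, the usual depth-scaled count: the counts of a gene in a library, with repeat runs summed, relative to the library total after TMM scaling, a factor that evens out differences in composition between libraries. For each day the lowest, the median and the highest of the 6 libraries are given. Fold changes are on the log2 scale with their standard error (±), from edgeR's quasi-likelihood test on 3 against 3 litter pairs, and adjusted p-values are Benjamini-Hochberg values over all 17003 genes, called below 0.05. The earlier step (GD60 against GD45), the later step (GD90 against GD60) and the whole interval (GD90 against GD45) share samples, so the 3 comparisons are not independent. Library totals ran from 15118843 to 19729783 counts.

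Almost the whole set rose during gestation, and more members were called higher in the later step, which spans more days than the earlier one. Across the whole interval, 38 of 41 members were higher at GD90 than at GD45 and 0 were lower (unadjusted p under 0.05: 39 higher and 0 lower), where 26.5% of all genes tested were called higher and 26.8% lower. The median log2 fold change of the members was 1.32, against -0.02 over all genes. For the unadjusted counts of each step and of the interval, no share of all genes was computed. In the earlier step, 17 of 41 were higher and 0 lower (unadjusted 26 and 0), against 6.75% and 4.86% of all genes. DESeq2 called 20 higher and 0 lower, against 8.67% and 6.78% of all genes. The median log2 fold change was 0.35. In the later step, 34 of 41 were higher and 0 lower (unadjusted 34 and 1, DESeq2 34 and 0), against 18.7% of all genes in each direction, and the median was 0.84. The earlier count was the less steady: it was 7 without the GD45 female of the litter of 8 (fetus 18; 2.64% of all genes higher in that fit), 11 without the GD90 male fetus 1 (4.18%), 11 without the GD60 litter of 13 (4.58%) and 10 without the GD60 litter of 15 (3.58%), so the share of all genes fell with it, whereas the count over the whole interval stayed between 37 and 39 with any library or litter pair left out. Over 35 alternatives on whole-gene counts, the earlier-step calls of SYN1, SYNGR3, SYT6, SYT13, RAB3B, BSN and DNM1 were kept in all 35, and the other 10 in 18 (RIMS3) to 32 (SYNGR1).

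**Figure D1:**
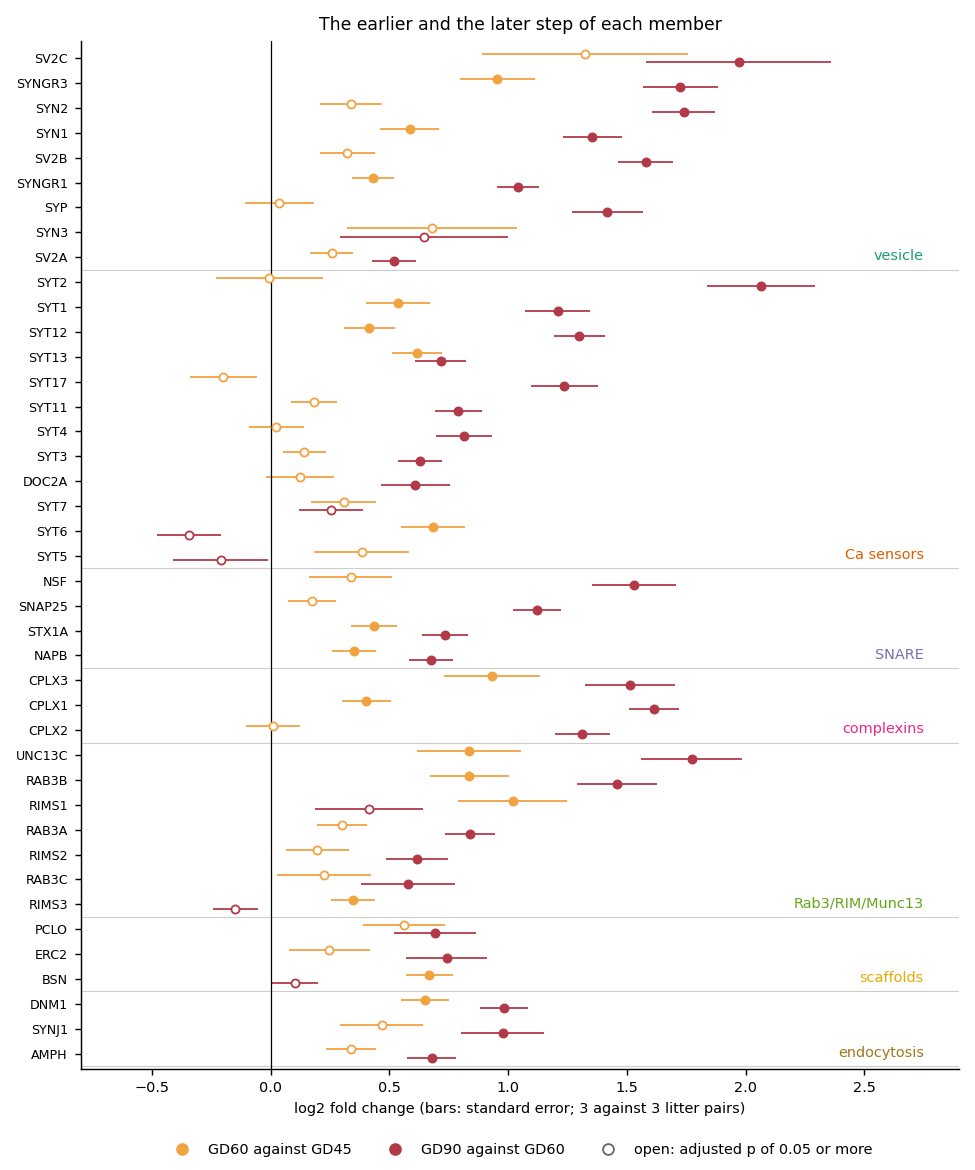
Log2 fold change of each of the 41 members in the earlier step (GD60 against GD45, orange) and in the later step (GD90 against GD60, red), with standard errors from 3 against 3 litter pairs and filled points for adjusted p under 0.05, grouped by role. The red points lie to the right of the orange ones for most members, while RIMS1, BSN, SYT7 and SYN3 have the orange point to the right and SYT6, SYT5 and RIMS3 have red points below 0.

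For most members the GD90 libraries stood apart from the earlier ones. In 14 of 41 members, all 6 GD60 libraries were above all 6 GD45 libraries (4.47% of all genes), and in 31 of 41 all 6 GD90 libraries were above all 6 GD60 libraries (12.5% of all genes). Summed over the 41 members, the level was 4043 to 4798 CPM at GD45, 5442 to 5999 CPM at GD60 and 10339 to 11296 CPM at GD90. Markers of neurons that are not synaptic (11 found of 12 listed, none at 0) included MAP2, TUBB3, DCX and STMN2. They summed to 8302 to 11194, 10218 to 12545 and 10440 to 11947 CPM on the same days. Whether the level of these markers per neuron stayed the same was not tested. Of these 11 markers 5 were higher and 0 lower at GD90 than at GD45, with a median log2 fold change of 0.28. In bulk tissue, more neurons and more RNA of these genes per neuron cannot be told apart.

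**Figure D2:**
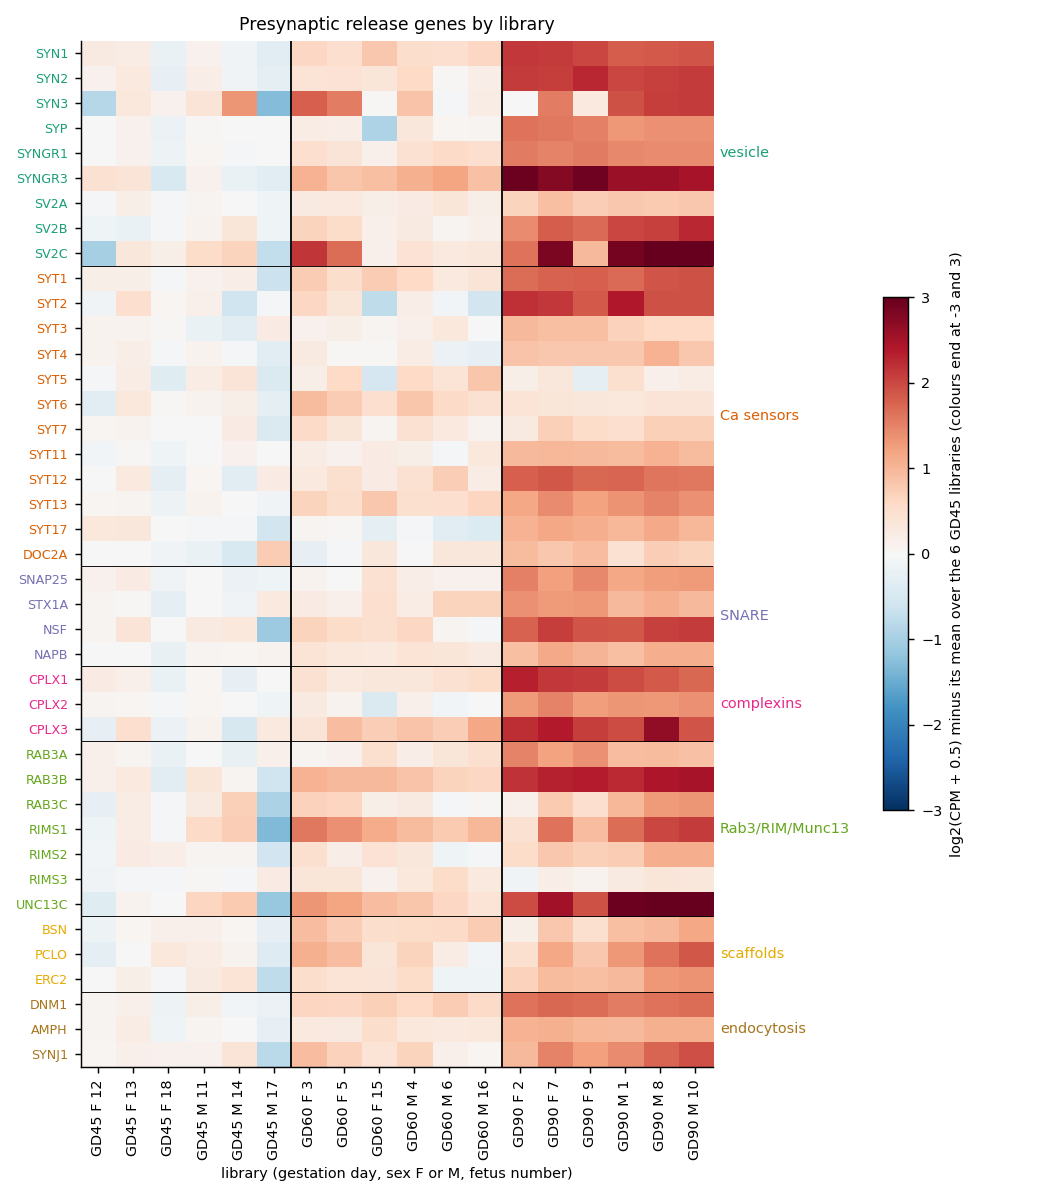
Level of each of the 41 members in each of the 18 libraries, as log2(CPM + 0.5) minus the mean of the same value over the 6 GD45 libraries, with members grouped by role. The 6 GD90 columns are the reddest for most members, SYT5, SYT6 and RIMS3 stay pale at GD90, and SYN3, SV2C, RIMS1, RAB3C and UNC13C differ widely between libraries of the same day.

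Other cell types changed in the same libraries. Markers of oligodendrocytes (7 of 7 found higher at GD90 than at GD45) summed to 63.4 to 83.9 CPM at GD45 and 1882 to 3197 CPM at GD90, astrocyte markers (4 of 4 higher) to 126 to 249 and 1324 to 1710 CPM, and markers of progenitors and radial glia (7 of 8 lower, 1 higher) to 2060 to 3549 and 1289 to 1696 CPM. Markers of neuroendocrine and pituitary cells, which also use vesicle release genes, summed to 348 to 504 CPM at GD45 and 970 to 1351 CPM at GD90 (6 found of 7 listed, 5 tested, 3 higher and 1 lower, with 1 of the 6 at 0 in all GD90 libraries). Markers of oligodendrocyte precursors (5 of 5) and microglia (6 of 6) were higher, as were 2 of 4 of endothelium, and 4 of 4 erythroid markers were lower. The part of these cells in the members' levels was not tested.

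All 9 genes of the vesicle membrane and its surface were higher at GD90 than at GD45, with a median log2 fold change of 1.90; 3 were higher in the earlier step and 8 in the later step. SYP, synaptophysin, an abundant protein of the vesicle membrane, stood at 310, 355 and 385 CPM at GD45, 186, 389 and 446 CPM at GD60 and 862, 961 and 1083 CPM at GD90. The GD45 and GD60 ranges overlapped, with the GD60 female fetus 15 lowest of all 18 libraries, and every GD90 library was above every earlier one. Over the whole interval SYP rose (log2 fold change 1.46 ± 0.15, adjusted p = 1.35e-05); in the earlier step its log2 fold change was 0.04 (adjusted p = 0.905). It was the most abundant gene of this group per length, with 135 ± 9.33 FPKM (CPM per kilobase of gene length, SD, n = 6) at GD45 and 373 ± 35.0 FPKM at GD90.

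SV2C, a vesicle glycoprotein of restricted brain regions, changed most and was nearly silent at first: 0.051, 0.818 and 1.25 CPM at GD45, 0.731, 0.939 and 4.37 CPM at GD60 and 1.65, 7.40 and 13.0 CPM at GD90. Its GD60 and GD90 ranges overlapped, and its rise (log2 fold change 3.29 ± 0.43, adjusted p = 7.77e-05) rests on the lowest counts of the set. SV2A, the widely expressed form and the binding site of the antiseizure drug levetiracetam, changed least, from 258, 279 and 320 CPM to 452, 491 and 532 CPM. The 3 days of SV2A did not overlap although the rise was small (log2 fold change 0.77 ± 0.09, adjusted p = 4.38e-05). SV2B lay between them, at a median of 26.95, 33.2 and 109 CPM on the 3 days, with only the later step called. SYNGR1, a synaptogyrin, rose in both steps, with medians of 205, 282 and 563 CPM.

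The synapsins, which tether vesicles to each other and to the cytoskeleton, did not follow a common course. SYN1 rose in both steps, at 81.2, 103 and 122 CPM at GD45, 143, 150 and 176 CPM at GD60 and 358, 393 and 444 CPM at GD90, and its 3 days did not overlap. SYN2 stood at medians of 50.9, 66.3 and 215 CPM and was called in the later step only (adjusted p = 0.124 in the earlier step). SYN3 was scattered: 3.81, 11.9 and 25.7 CPM at GD45, 9.86, 15.1 and 35.9 CPM at GD60 and 10.0, 34.6 and 45.0 CPM at GD90, with all 3 days overlapping; its whole-interval call (log2 fold change 1.33 ± 0.36, adjusted p = 0.00938) was lost among females alone and without the GD45 female fetus 13, the GD90 male fetus 1 or the GD90 male fetus 10. SYNGR3, a synaptogyrin of the vesicle membrane, rose in both steps with medians of 33.1, 66.9 and 219 CPM, a log2 fold change of 2.68 over the interval.

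SYN1 was also the member whose upstream sequence held the motifs searched. RE1-silencing transcription factor (REST) represses neuronal genes outside neurons, and the cAMP response element is the site of CREB. In windows of 300 bases (250 before and 50 after the first base of the gene as the table lists it), the left 9 letters of the REST site, TTCAGCACC, occurred on either strand in 1 of 41 members and 0.348% of 30431 gene windows, the right 9 letters, GGACAGCGC, in 1 of 41 and 0.338%, and the cAMP response element, TGACGTCA, in 1 of 41 and 1.54%. The 1 member was SYN1 each time. Its upstream 250 bases (Sscrofa11.1, chrX:42142225-42142474, minus strand, written 5′ to 3′ toward the gene, ending at the base before the gene start) are shown because they hold the whole arrangement, with the 3 matches in capitals; the left and right REST letters start 221 and 210 bases before the gene start, with 2 bases between them, and the cAMP response element starts 147 bases before it.
SYN1 upstream: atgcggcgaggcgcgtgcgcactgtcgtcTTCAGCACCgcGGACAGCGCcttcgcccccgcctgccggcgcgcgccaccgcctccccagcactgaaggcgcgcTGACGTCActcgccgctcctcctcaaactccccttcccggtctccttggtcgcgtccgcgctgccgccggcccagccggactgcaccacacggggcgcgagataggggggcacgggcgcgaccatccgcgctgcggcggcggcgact
The windows of the 41 members were rich in G and C, with a median of 68.3% against 53.3% over all 30431 windows. A match is a description of the letters only, and no match in the other 40 says nothing of REST or CREB there, since the sites may lie outside the window or differ by a letter.

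In the group listed as calcium sensors, 10 of 12 were higher at GD90 than at GD45 and the median log2 fold change was 0.91. The group was formed by gene family, and not every form in it is an established sensor of calcium. SYT1, the main fast sensor of transmitter release in the forebrain, stood at 143, 247 and 253 CPM at GD45, 273, 329 and 378 CPM at GD60 and 710, 762 and 838 CPM at GD90. Its 3 days did not overlap; the GD45 male fetus 17 was far below the other GD45 libraries. It rose over the interval (log2 fold change 1.75 ± 0.14, adjusted p = 2.01e-06), and SYT1 was the most abundant sensor per length (196 ± 12.9 FPKM at GD90, SD, n = 6).

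SYT2, the fast sensor of hindbrain and spinal synapses, was level at first and rose most of the sensors: 9.40, 14.6 and 20.6 CPM at GD45, 8.36, 15.1 and 22.4 CPM at GD60 and 52.8, 60.4 and 78.6 CPM at GD90. GD45 and GD60 overlapped, and every GD90 library was above both. Its later step was called (log2 fold change 2.06 ± 0.23, adjusted p = 6.24e-05), and the earlier step had a log2 fold change of -0.01 (adjusted p = 0.99). SYT17 and SYT4, neither of them a fast sensor, had similar flat starts, with medians of 17.2, 15.5 and 37.1 CPM for SYT17 and of 98.3, 98.9 and 169 CPM for SYT4. SYT3 and DOC2A were also called only from GD60 on, with medians of 62.2, 65.5 and 103.6 CPM and of 48.2, 57.0 and 85.9 CPM. SYT11, a form that binds little calcium, rose in the later step from a high level (medians of 404, 457 and 777 CPM), while SYT12 (28.97, 37.4 and 96.5 CPM) and SYT13 (185, 274 and 468 CPM) rose in both. The earlier-step call of SYT13 was kept in 35 of 35 alternatives and that of SYT12 in 21, with the call lost in each sex alone.

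SYT6 was highest at GD60. It stood at 16.3, 21.7 and 25.7 CPM at GD45, 28.7, 33.2 and 40.3 CPM at GD60 and 25.7, 26.9 and 27.7 CPM at GD90. Every GD60 library was above every GD45 library and every GD90 library, and the GD90 libraries lay close together. The earlier step was called (log2 fold change 0.68 ± 0.14, adjusted p = 0.00861) and the later step missed the threshold (log2 fold change -0.34 ± 0.13, adjusted p = 0.066). The later step minus the earlier step was called (log2 fold change -1.03 ± 0.23, adjusted p = 0.0306), and SYT6 was the only member with a called slowing (2.46% of all genes), although this call was lost in 10 of 35 alternatives.

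The remaining sensors with little change were SYT5 and SYT7. SYT5 stood at medians of 6.18, 8.43 and 6.74 CPM and was called in no step (log2 fold change 0.17 ± 0.20, adjusted p = 0.497 over the interval). Its counts say little of the whole gene: 97.4% of its counts in the exon table lay on a single exon of 200 bases, and its exons overlap those of PTPRH and TNNI3 on the same strand. SYT7, a slow sensor linked to facilitation, stood at 95.8, 133 and 152 CPM at GD45, 136, 162 and 193 CPM at GD60 and 156, 200 and 213 CPM at GD90, with each day overlapping the next. It was called over the interval (log2 fold change 0.56 ± 0.14, adjusted p = 0.00482) and in neither step.

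The SNARE group had 4 members in the table and all 4 were higher at GD90 than at GD45. SNAP25, a plasma membrane SNARE and the most abundant of the group (250 ± 23.5 FPKM at GD90, SD, n = 6), stood at 209, 230 and 278 CPM at GD45, 236, 259 and 324 CPM at GD60 and 529, 566 and 673 CPM at GD90. The earlier days overlapped, and all GD90 libraries were above them. Its later step was called (log2 fold change 1.12 ± 0.10, adjusted p = 1.76e-05), and its earlier step had a log2 fold change of 0.17 (adjusted p = 0.304).

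NSF, the ATPase that takes SNARE complexes apart, rose most of the group (log2 fold change 1.87 ± 0.18, adjusted p = 8.27e-06), from 32.7, 79.1 and 91.7 CPM at GD45 to 238, 276 and 299 CPM at GD90, with the GD45 male fetus 17 again far below the rest of its day. NAPB, the neuronal form of its SNAP adaptor, rose least (log2 fold change 1.03 ± 0.09, adjusted p = 5.41e-06), from 146, 174 and 182 CPM to 318, 354 and 375 CPM, and its 3 days did not overlap. STX1A, the syntaxin of the plasma membrane, rose in both steps, with medians of 145, 188 and 327 CPM. VAMP2, the vesicle SNARE found by identifier, stood at 79.2, 186 and 203 CPM at GD45, 202, 219 and 251 CPM at GD60 and 413, 444 and 490 CPM at GD90; its later step was called (log2 fold change 1.00 ± 0.17, adjusted p = 0.00106).

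SNAP25 transcripts carry either of a pair of alternative exons that lie next to each other, and the exon table held both. They are shown because they can be told apart by sequence: both have 118 bases and 88 of them are the same (74.6%), with the 30 that differ in capitals. The upstream exon is at chr17:19210867-19210984 and the downstream exon at chr17:19211156-19211273 (Sscrofa11.1, plus strand, 5′ to 3′).
Upstream exon: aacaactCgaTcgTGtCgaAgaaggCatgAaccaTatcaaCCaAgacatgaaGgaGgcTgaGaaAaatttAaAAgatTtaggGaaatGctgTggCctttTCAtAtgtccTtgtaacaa
Downstream exon: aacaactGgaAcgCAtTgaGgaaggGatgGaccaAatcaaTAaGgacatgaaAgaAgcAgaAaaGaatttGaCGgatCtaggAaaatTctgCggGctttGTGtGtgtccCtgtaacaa
The downstream exon took 17.6%, 26.9% and 40.5% of the counts of the pair at GD45 (lowest, median and highest of 6 libraries), 15.4%, 28.9% and 34.4% at GD60 and 31.8%, 37.7% and 42.9% at GD90. The GD90 shares were above the GD60 and GD45 medians in every library, and their range overlapped both earlier days. Means over 3 litter pairs were 28.8%, 26.8% and 37.5%, and the 3 GD90 pairs (35.1%, 35.1% and 42.4%) were above the 3 of GD60 (exact two-sided permutation test, p = 0.1, the smallest that 3 against 3 allows) and above the 3 of GD45 (same test, p = 0.1). The pair rested on few reads, 498 at GD45, 494 at GD60 and 1537 at GD90 over 6 libraries each, so that single pairs had exact 95% binomial intervals as wide as 20.6% to 39.3% (GD45 litter of 8), covering counting error only. In the test of exon usage over all exons, the downstream exon was not called (adjusted p = 0.456). This exon pair was chosen after its values were seen.

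All 3 complexins were higher at GD90 than at GD45, with a median log2 fold change of 2.02. CPLX1 stood at 32.9, 39.7 and 46.7 CPM at GD45, 48.1, 51.8 and 57.2 CPM at GD60 and 131, 160 and 198 CPM at GD90. Its days did not overlap, and the later step (log2 fold change 1.61 ± 0.11, adjusted p = 2.58e-06) had the lowest adjusted p of all members in that step. CPLX2, the more abundant form (128 ± 7.77 FPKM at GD90, SD, n = 6), stood at 237, 263 and 271 CPM at GD45, 192, 266 and 311 CPM at GD60 and 618, 641 and 724 CPM at GD90, with an earlier step of 0.01 on the log2 scale (adjusted p = 0.965) and a rise over the interval (log2 fold change 1.32 ± 0.12, adjusted p = 4.23e-06). CPLX3, known from retinal ribbon synapses and a layer of the deep cortex, was rare but rose most of the complexins (log2 fold change 2.45 ± 0.20, adjusted p = 2.61e-06), from 1.19, 1.83 and 2.83 CPM to 8.20, 9.98 and 14.5 CPM.

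In the Rab3, RIM and Munc13 group, 6 of 7 members were higher at GD90 than at GD45. RAB3A, the vesicle GTPase, was the most abundant of all 41 members per length (440 ± 79.6 FPKM at GD90, SD, n = 6) and stood at 262, 319 and 344 CPM at GD45, 327, 375 and 428 CPM at GD60 and 566, 653 and 856 CPM at GD90. Every GD90 library was above every earlier one, and the 3 GD90 females (715, 798 and 856 CPM) were above the 3 GD90 males (566, 582 and 590 CPM). RAB3A rose over the interval (log2 fold change 1.14 ± 0.11, adjusted p = 6.46e-06). RAB3B, with medians of 26.8, 46.9 and 126 CPM, rose in both steps and without overlap; RAB3C, with 48.9, 101 and 155 CPM at GD45 and 104.4, 175 and 238 CPM at GD90, overlapped on all days, and its later step was called in 20 of 35 alternatives.

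UNC13C, a Munc13 form best known from the cerebellum, rose most of this group (log2 fold change 2.61 ± 0.22, adjusted p = 3.38e-06), from 1.71, 4.55 and 7.90 CPM at GD45 through 5.95, 8.51 and 11.6 CPM at GD60 to 17.9, 32.3 and 40.1 CPM at GD90. UNC13B, found by identifier, was the exception to the rise: 42.0, 50.6 and 54.6 CPM at GD45, 31.2, 44.9 and 53.4 CPM at GD60 and 26.2, 34.4 and 44.0 CPM at GD90. It was lower at GD90 than at GD45 (log2 fold change -0.51 ± 0.14, adjusted p = 0.00807), and neither step alone was called (adjusted p = 0.497 and 0.0609). The Munc13 forms thus moved in opposite directions, from levels per length of 0.578 ± 0.277 FPKM (UNC13C) and 2.80 ± 0.275 FPKM (UNC13B) at GD45 to 3.57 ± 1.20 and 1.97 ± 0.327 FPKM at GD90 (SD, n = 6).

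The RIM genes, which link Rab3 and calcium channels to the active zone, split. RIMS1 stood at 17.9, 48.7 and 76.3 CPM at GD45, 79.1, 95.6 and 139 CPM at GD60 and 63.0, 145 and 198 CPM at GD90. All GD60 libraries were above all GD45 libraries, and the GD90 libraries spread on both sides of them. Its earlier step was called (log2 fold change 1.02 ± 0.23, adjusted p = 0.016) and its later step was not (log2 fold change 0.41 ± 0.23, adjusted p = 0.177). RIMS2 had medians of 21.9, 24.7 and 35.7 CPM and was called in the later step only (adjusted p = 0.00397). RIMS3, a short form without the Rab3-binding end, had medians of 121, 158 and 147 CPM, a called earlier step (log2 fold change 0.35 ± 0.09, adjusted p = 0.0356) and no call over the interval (log2 fold change 0.20 ± 0.09, adjusted p = 0.0948). Its earlier-step call held in 18 of 35 alternatives.

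All 3 active zone scaffolds were higher at GD90 than at GD45. BSN, bassoon, stood at 91.4, 114 and 122 CPM at GD45, 156, 173 and 207 CPM at GD60 and 123, 199 and 244 CPM at GD90. The GD45 and GD60 libraries did not overlap, and the GD90 libraries reached both below and above those of GD60. Its earlier step was called (log2 fold change 0.67 ± 0.10, adjusted p = 0.00205) and its later step was not (log2 fold change 0.10 ± 0.10, adjusted p = 0.454). PCLO, piccolo, its larger relative, rose most of the group (log2 fold change 1.25 ± 0.17, adjusted p = 0.000127), from 29.8, 40.3 and 48.9 CPM to 54.8, 92.7 and 143 CPM, with each day overlapping the next. ERC2, which binds RIM, had medians of 38.1, 47.5 and 70.5 CPM and was called in the later step (adjusted p = 0.00602).

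The 3 genes of vesicle retrieval were all higher at GD90 than at GD45. DNM1, the neuronal dynamin that cuts vesicles from the membrane, stood at 178, 203 and 229 CPM at GD45, 301, 314 and 344 CPM at GD60 and 586, 640 and 671 CPM at GD90. Its days were far apart, and it rose in both steps (log2 fold change 1.63 ± 0.10, adjusted p = 4.43e-07 over the interval). AMPH, amphiphysin, rose least of the 3 (log2 fold change 1.02 ± 0.11, adjusted p = 1.42e-05), from 95.5, 116 and 133 CPM to 223, 234 and 239 CPM. SYNJ1, the lipid phosphatase that helps to uncoat vesicles, had medians of 60.3, 81.2 and 154 CPM, with only the later step called (adjusted p = 0.0014).

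**Figure D3:**
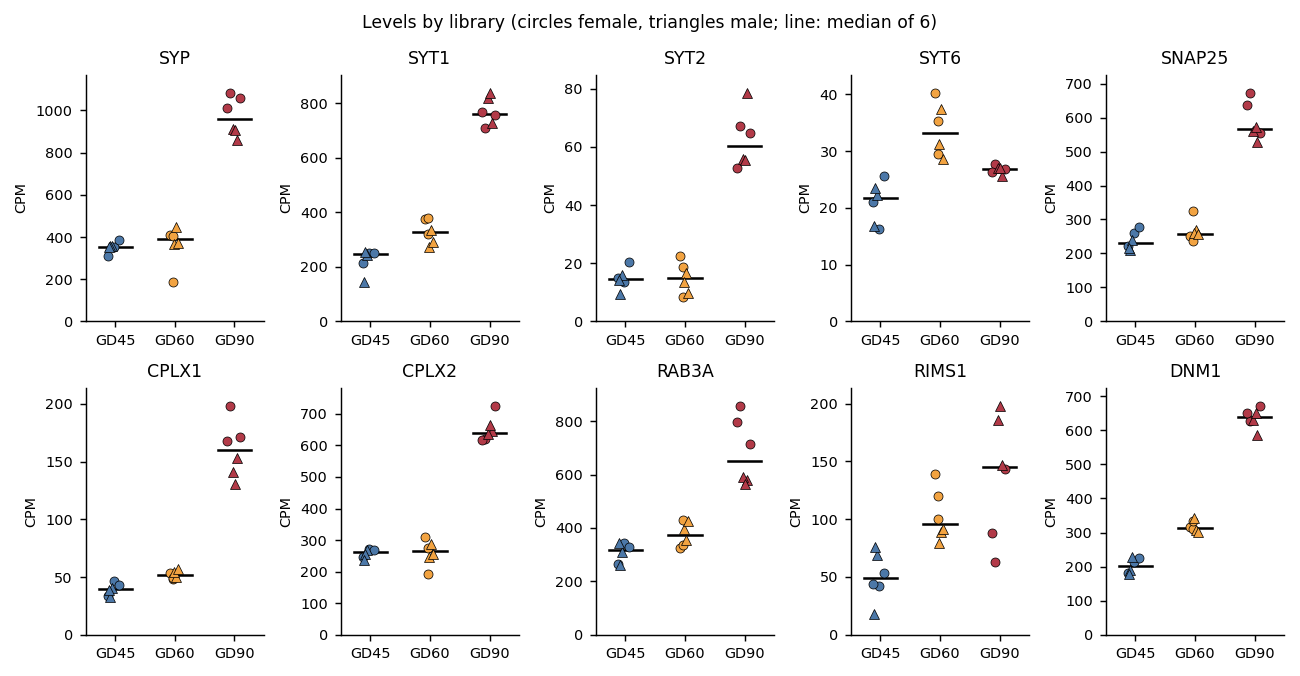
CPM of 10 members in each library by gestation day (axes from 0; circles female, triangles male, line at the median of 6). SYP, SYT2, SNAP25 and CPLX2 overlap between GD45 and GD60 and are higher at GD90, SYT6 is highest at GD60, DNM1 and CPLX1 climb without overlap, and the GD90 values of RIMS1 and RAB3A divide by sex in opposite directions.

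Of the 38 members called higher over the interval, 34 were late rising, with less than 0.5 of their log2 rise reached by GD60, and 4 were early rising: BSN (86.9% of the log2 rise by GD60), RIMS1 (71.1%), SYT7 (54.6%) and SYN3 (51.2%). Just below the line were SYT13 (46.3%) and PCLO (44.7%). At the other end SYT2 and SYT17 had shares below 0, CPLX2, SYP and SYT4 had 0.80%, 2.58% and 2.91%, and SNAP25 had 13.4%. The median share was 29.7% of the log2 rise for the members and 34.9% for the 4511 genes called higher over the interval, and 10.5% of the members against 28.1% of those genes were early rising. On the linear CPM scale only BSN and RIMS1 of these 38 were early rising. These classes are descriptions with no test, and in days GD60 lies before the middle of the interval.

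A test of the later step against the earlier step was available across all genes. It compares the log2 change per step and not per day. The later step spans more days, so a member rising at a constant log2 rate per day would show a larger later step. The later step was larger than the earlier step for 9 of 41 members (SNAP25, SYT2, SYT12, SYT17, CPLX1, CPLX2, SV2B, SYN2 and SYP), where 2.16% of all genes were called, and smaller for SYT6. The largest difference was that of SYT2 (log2 fold change 2.07 ± 0.40, adjusted p = 0.0172), and CPLX1 had the lowest adjusted p (log2 fold change 1.21 ± 0.18, adjusted p = 0.00652). The count depended on single litters: it was 1 without the GD60 litter of 15 (0.335% of all genes), 18 without the GD45 litter of 8 (4.6%), 4 without its female alone (fetus 18; 0.394%) and 16 without its male alone (fetus 17; 4.82%). It was 16 with DESeq2 (5.29%), 14 with a likelihood ratio test (4.04%) and 16 when the 18 libraries were fitted one by one (5.13%), so that the members' count moved with that of all genes. The GD45 litter of 8 had the smallest labelled brains of its day and the lowest GD45 level of 36 of the 41 members, and the highest of 3. The share of all genes lowest in that litter was not computed, so whether this is particular to the members is not known.

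Per length, the members differed over a wide range. At GD90 the highest mean levels were those of RAB3A (440 FPKM), SYP (373 FPKM), SNAP25 (250 FPKM) and SYT1 (196 FPKM), and the lowest those of SV2C (2.50 FPKM), SYT5 (3.55 FPKM) and UNC13C (3.57 FPKM). RAB3A and SYP were already the highest at GD45, with 199 ± 23.7 and 135 ± 9.33 FPKM (SD, n = 6). Their ranges of CPM divided by length did not overlap at GD45, while neighbours further down, such as SNAP25 (101 ± 11.4 FPKM) and SYT11 (84.1 ± 5.50 FPKM), had overlapping ranges. Gene length here is that of all exons of the annotation, so genes with long annotated ends have lower FPKM.

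**Figure D4:**
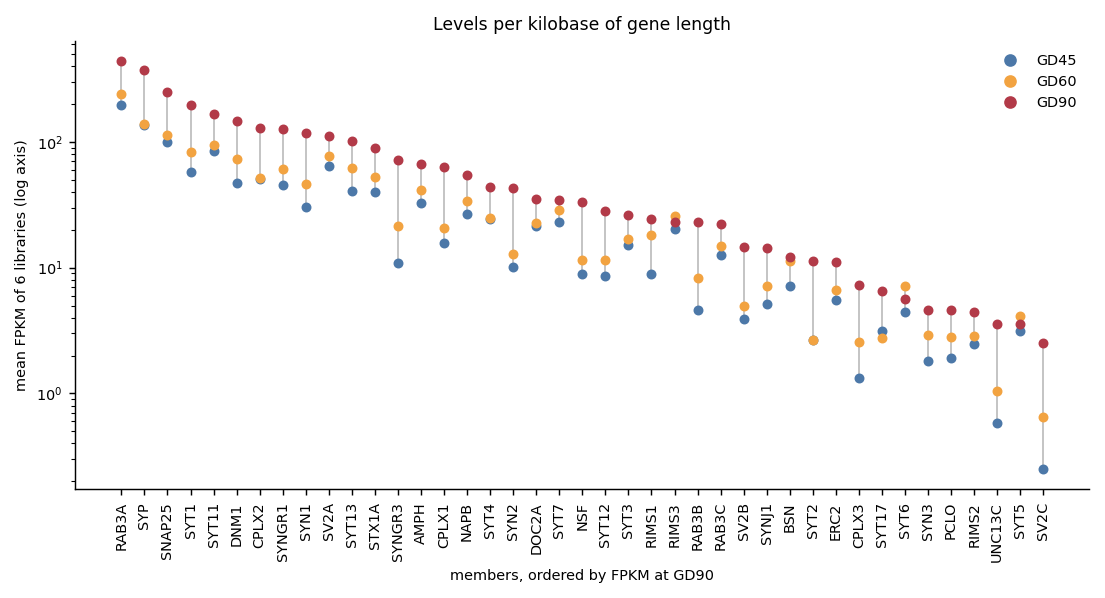
Mean FPKM (log axis) of each of the 41 members over the 6 libraries of GD45, GD60 and GD90, ordered by the GD90 level. The GD90 point is the highest for all members except SYT5, SYT6 and RIMS3, and the longest distances between days are those of rare genes such as SV2C, UNC13C and CPLX3.

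Where along the genes the counts lay differed between libraries, and this touches the long genes named above. The share of the members' exon counts that fell in each gene's 3′-most listed exon was 62.2%, 66.3% and 79.2% at GD45 (lowest, median and highest library), 54.8%, 63.6% and 69.2% at GD60 and 54.0%, 57.1% and 69.2% at GD90. The GD45 male fetus 17 had the highest share, and at GD90 the 3 males (54.0% to 56.0%) were below the 3 females (58.1% to 69.2%). BSN showed the difference within a gene: its 3′-most exon (chr13:32200966-32203459, Sscrofa11.1) had medians of 156, 196 and 171 CPM of the exon table on the 3 days, and its longest exon (chr13:32183267-32189938) had 11.5, 28.3 and 71.2 CPM. In the GD90 females the longest exon had 8.03, 14.1 and 57.3 CPM, and in the GD90 males 85.2, 93.8 and 101 CPM. Beyond the count in 3′-most exons given next, the part of this difference in the members' levels was not tested.

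**Figure D5:**
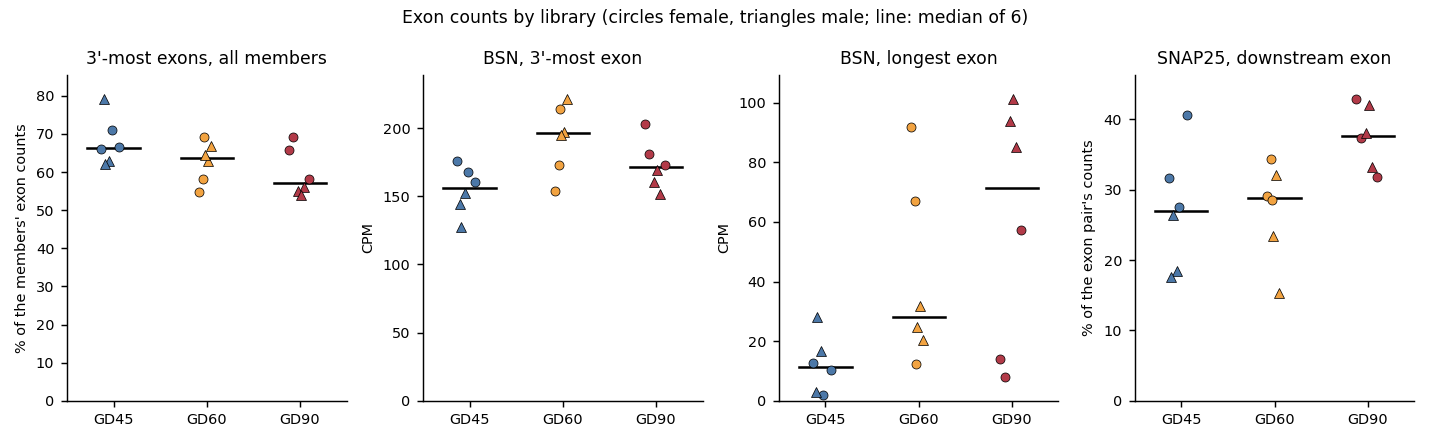
Per library and gestation day (circles female, triangles male, line at the median of 6): the share of the members' exon counts in the 3′-most exons, CPM of the 3′-most and of the longest BSN exon, and the share of the downstream exon among the counts of the SNAP25 exon pair. Within GD90, the 3 males lie below the 3 females in the first panel and above them in the BSN longest exon panel, and the BSN 3′-most exon has overlapping days.

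With each gene counted in its 3′-most exon alone, an alternative chosen after seeing the data, 29 of the 41 members had enough counts to be tested among 9659 genes. Of these, 23 were higher and 0 lower at GD90 than at GD45 (21.3% of all genes higher), 7 higher in the earlier step (3.76%) and 21 higher in the later step (13.6%). SYT6 was lower in the later step under this count (log2 fold change -0.45 ± 0.14, adjusted p = 0.0332; 13.6% of all genes lower). BSN kept its call over the interval with a smaller change (0.39 ± 0.11, adjusted p = 0.0106), and its earlier step had an adjusted p of 0.0523. RIMS1 kept both its earlier step (0.89 ± 0.23, adjusted p = 0.0336) and its interval call (1.04 ± 0.23, adjusted p = 0.0025). PCLO (0.16 ± 0.24, adjusted p = 0.621), NAPB, SYT7 and DOC2A (0.37 ± 0.14, adjusted p = 0.0518) lost their interval calls. Over all exons, the exon counts held only part of a gene's counts. They were 1553 against 72559 gene counts for NAPB, 4495 against 19158 for PCLO, 19522 against 48318 for SYT7 and 14087 against 18996 for DOC2A. The lost calls of NAPB and PCLO thus rest on a small part of their counts.

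Usage of exons within a gene was compared at GD90 against GD45 over 88318 exons. Of 40 members with a tested exon, 7 had a called exon (BSN, SYN2, DOC2A, DNM1, SV2B, PCLO and ERC2; 11 exons), and 7.94% of 12005 genes had 1 or more. Of the called exons, the longest exon of BSN had the lowest adjusted p (9.44e-05), and an exon of 106 bases of DNM1 (chr1:268698181-268698286) had a lower usage at GD90, with medians of 1.27, 1.91 and 2.57 CPM. The count of members ranged from 2 (without the GD45 litter of 8) to 21 (without the GD60 litter of 8). It was 3 without either the GD90 litter of 11 or that of 18, and 4 without the GD45 litter of 16. Without the GD45 litter of 17 it was 16, and without the GD60 litter of 13 it was 11. The share of all genes was not computed in these left-out fits, so whether it moved with the members' count is not known. Single exons of the members are not settled by these libraries.

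Fetal sex was compared on each day with 3 females and 3 males in a fit of all 18 libraries. No member was called at any day by edgeR: 0 of 41 at GD45 (0.0919% of 16325 genes), 0 at GD60 (0.098%) and 0 at GD90 (0.098%). DESeq2 also called 0 on each day. At an unadjusted p under 0.05 there were 1, 1 and 13 members. The share of all genes at that threshold was not computed, so whether these counts exceed it is not known. The 13 at GD90 went in both directions. Higher in males were 9, among them BSN (log2 difference 0.51 ± 0.16, unadjusted p = 0.00558), PCLO (0.78 ± 0.24, 0.0052), RIMS1 (0.85 ± 0.37, 0.0329) and UNC13C (0.85 ± 0.33, 0.0188). Higher in females were RAB3A (-0.45 ± 0.14, 0.00512), CPLX1 (-0.34 ± 0.13, 0.0181), STX1A (-0.31 ± 0.14, 0.0474) and SYT3 (-0.31 ± 0.13, 0.0284). The lowest adjusted p among them was 0.35. At GD90 the 3 males also had lower shares of 3′-most exon counts than the 3 females, as given above. The relation of that share to these differences was not tested.

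No member was called for a difference of its steps between the sexes by edgeR. The count was 0 of 41 in the earlier and 0 of 41 in the later interval, with 0% of all genes called in each. The unadjusted counts were 1 and 13, again with no share of all genes computed, so whether they exceed it is not known. In the later interval, PCLO had the lowest p (male step minus female step 1.29 ± 0.34 on the log2 scale, unadjusted p = 0.00166, adjusted p = 0.175), and it was the 1 member called by DESeq2 (adjusted p = 0.0341; 1.74% of all genes called). Without the GD45 male fetus 17, 10 of 41 members were called in this interval, where 13.3% of all genes were called in the same fit, among them PCLO, RIMS1, UNC13C and SV2C with larger and RAB3A and STX1A with smaller steps in males. Within each sex, the members' rise was present: 36 of 41 were higher at GD90 than at GD45 among females (20.0% of all genes) and 37 among males (23.4%), and 28 (13.7%) and 35 (18.5%) in the later step.

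A list of other presynaptic genes had a smaller median change than the members. Of 78 listed, 74 were found and 72 tested. At GD90, 39 were higher and 6 lower than at GD45 (26.5% and 26.8% of all genes), with a median log2 fold change of 0.44. In the earlier step 15 were higher and 0 lower (6.75% and 4.86% of all genes, median 0.19). In the later step 30 were higher and 7 lower (18.7% of all genes in each direction, median 0.28). How far the choice of genes for each list sets this difference was not tested. The 3 that rose most were PPFIA4, a liprin of the active zone (log2 fold change 2.16 ± 0.15, adjusted p = 6.95e-07), CADPS2, a priming factor of dense-core vesicles (2.07 ± 0.16, adjusted p = 1.8e-06), and RPH3A, a Rab3 effector (1.93 ± 0.13, adjusted p = 7.18e-07). The 3 that fell most were SNAP29, a SNARE of intracellular fusion (-0.52 ± 0.17, adjusted p = 0.0217), PPFIA1, a widely expressed liprin (-0.46 ± 0.10, adjusted p = 0.0026), and STON2, an endocytic adaptor (-0.45 ± 0.13, adjusted p = 0.0148).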

How the data were processed

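RNA from 18 whole fetal brains was sequenced as 150-base paired-end reads after oligo(dT) enrichment. The submitters' processing notes name FastQC, Trimmomatic, HISAT2 and featureCounts on Sscrofa11.1. The strand setting is not given in the sources used here. Exons of 10 members overlap those of another gene, 7 of them on the other strand for at least 1 gene. The part of these overlaps in the counts was not tested. The authors deposited raw counts per gene and per exon, with no normalization, in 22 columns; the 2 runs of each of 4 libraries were summed. Library totals were 15118843 to 19729783 counts, which limits the precision of rare genes.

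The members and lists were chosen with earlier results of these data known. Counts were summed by litter pair (1 female and 1 male of the same day and litter size label, 9 pairs; the pairing was read from these labels) and compared between days with edgeR 4.0.16 in R 4.3.3 (filterByExpr, TMM, glmQLFit and glmQLFTest), with Benjamini-Hochberg adjustment over 17003 genes and a threshold of 0.05. Fetuses were separate animals. Sexes were compared in a model of 6 groups over 18 libraries (16325 genes). Exon usage was compared with diffSpliceDGE. Standard errors were the fold change divided by the square root of F. Deviations from group means of fetuses sharing a litter label correlated at -0.0932 to 0.424, not above 0.1 in every pair. The later step, the later against the earlier step, males against females at GD90 and exon usage were tried on simulated data. Each simulation gave all genes or exons the same spread. The other comparisons and the alternatives were not tried in this way. DESeq2 1.42.0, other filters, scaling, single sexes and leaving out each library or pair were alternatives.

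In each role group, statistics are given for the members with the highest and lowest change from GD45 to GD90, the member with the highest FPKM at GD90 and any member called lower; other members are given by level. In addition, statistics of SYT6, SYT5, SYT7, SYN3, RIMS1, SNAP25 and other members outside that rule were added after their values were seen. Sequences were read from the Sscrofa11.1 genome.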

Additional observations from a re-analysis of the deposited data

Results flagged for a closer look

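In 8 of 123 groups of 6 libraries (a member on a day), 1 library stood far from the others by Dixon's criterion, which chance gives in about 1 in 20 groups. The GD45 male fetus 17, of the litter with the smallest labelled brains and with the highest share of counts in 3′-most exons, accounted for 5: it was lowest for SYT1 (143 CPM), NSF (32.7 CPM) and SYNJ1 (31.2 CPM), and highest for DOC2A (85.3 CPM) and RIMS3 (148 CPM). The GD60 female fetus 15, with the highest share of 3′-most exon counts of its day, was lowest for SYP (186 CPM) and highest for AMPH (165 CPM). The GD90 male fetus 8 was highest for SYT4 (198 CPM). The part of the uneven counts along the genes in these values was not tested.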

How the results depend on the processing

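Of the 41 members found by name, none was called lower at GD60 or at GD90 than at GD45 under any of 36 alternatives. UNC13B, found by identifier and outside these counts, was lower at GD90 than at GD45 in the main fit. For 22 members with statistics in the text, the whole-interval fold change took 390 values under alternatives other than leaving out a single library. Of these, 381 kept the call or its absence, 4 lost the call and 5 gained it. The call was lost by SYN3 among females alone (0.85) and, in 3′-most exons, by PCLO (0.16), NAPB (0.13) and SYT7 (0.45). Among values called there or in the main fit, 0 turned direction. Sign changes between uncalled values were counted as kept, as for RIMS3 (0.20 in the main fit, -0.19 in 3′-most exons). Over all 41 members and 35 alternatives on whole-gene counts, 3 members lost an interval call: SYN3 in 4, DOC2A in 2 (males alone and without the GD45 female fetus 18) and RAB3C in 1 (females alone). Members higher at GD60 than at GD45 were 9 among males alone, 7 in 3′-most exons, and 7 to 18 with a library and 10 to 18 with a litter pair left out. Members higher at GD90 than at GD60 were 21 in 3′-most exons and 31 to 35 with a library or pair left out; those lower were 1 with 18 libraries averaged, 1 in 3′-most exons and 0 to 1 with a library or pair left out. Members higher at GD90 than at GD45 were 23 in 3′-most exons, where 29 members were tested, and 37 to 39 with a library or pair left out. A larger later step was called for 16 members with 18 libraries averaged, 14 by likelihood ratio, 16 by DESeq2, 3 in 3′-most exons, and 1 to 18 with a library or pair left out; a smaller one for 2, 0 (males alone), 2 (DESeq2) and 0 to 1. Of the 10 calls on the later step against the earlier step, 0 were kept in all alternatives. For the earlier step, the later step and the whole interval, 7 of 17, 27 of 34 and 35 of 38 were kept. The RAB3C later step was -0.01 among females alone. Members with a sex difference in the later interval were 1 by likelihood ratio, 1 by DESeq2 and 0 to 10 with a library left out; with the litter pair as a replicate block, 0 members differed by sex in each of the 5 sex results. Members with changed exon usage were 17 by the gene-level F test and 2 to 21 with a litter pair left out, with no share of all genes computed beside these counts. The causes of these differences were not tested. Fewer genes were tested in 3′-most exons, and the left-out fits held fewer samples. The 3′-most exon count was chosen after seeing the data. Depth limits SV2C, CPLX3, SYT5 and UNC13C most.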
